A study of Homo sapiens with 15 samples.

Results

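CD4 guides were compared with none in cells that carry the activation domain p65 on a nanobody, and the genes that were silent without guides and expressed with them were followed by level, position and normal tissue role. The comparison holds 6 of the 15 libraries of the series, chosen by their labels: 3 replicates (A, B and C) of the p65 line with guides and 3 of the p65 line without. Both lines derive from MelJuSo, a human melanoma cell line, and both express dCas12a, a form of Cas12a that is led to DNA by guide RNAs but no longer cuts it, joined to VP64 and a 5xALFA tag. An anti-tag nanobody brings p65, the activation domain of the NF-kB subunit RELA. The line with guides also holds a cassette of 3 guides against CD4, and the line without guides holds no such cassette. A second pair of lines has VP64 on the nanobody, with and without guides (3 libraries each), and 1 further line has tagged dCas12a without VP64, a bare nanobody and no guides (3 libraries). The labels do not say whether a line is a clone or a pool, so the cassette and any other difference between the lines cannot be told apart. They also do not say whether replicates were separate cultures, so the p-values rest on the spread between libraries, which may be technical.

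Activators of this kind work by bringing transcription machinery to a promoter. VP64 is a chain of short peptides from the viral activator VP16, and p65 binds coactivators such as the histone acetyltransferases p300 and CBP. Most genes of other tissues are silent in a cell line of 1 lineage, many of them with promoters packed in closed chromatin. The guides are addressed to CD4, a co-receptor of helper T cells that cells of the melanocyte lineage do not normally use.

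Total RNA was sequenced, and the 6 libraries held 16850958 to 22623404 expected counts (reads per gene estimated by RSEM). Of 14961 genes tested, 2805 rose with guides and 3018 fell, which is 18.7% and 20.2%, and 329 of the genes that rose did so at least 2-fold (2.2% of genes tested). Of 18 melanocyte markers 13 were tested, and of these 4 rose and 1 fell. SOX10 averaged 179 ± 16.1 TPM with guides and 131 ± 7.16 TPM without (SD, n = 3 each), while MLANA was near 0, with means of 0.0633 and 0.207 TPM. TPM (transcripts per 1000000) is a level corrected for transcript length. Of 28 T and B lymphocyte markers 13 had no count in any of the 6 libraries, among them CD3D, CD3E, CD3G and MS4A1. Only 3 of the 28 were tested, of which CD79B rose (log2 fold change 1.58) and IL7R fell (-0.68). The summed level of that list was 49.6 to 64.1 TPM with guides and 76.4 to 81.2 TPM without, most of it IL7R.

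CD4, the target, checks the labels. It stood at 1035, 1034 and 938 TPM in the p65 libraries with guides (replicates A, B and C), against 4.88, 5.44 and 5.61 TPM without. The log2 fold change was 7.60 (SE 0.143, edgeR adjusted p = 2.96e-20). CD4 was therefore low but not silent without guides.

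Genes were called silent below a mean of 0.5 TPM in the 3 p65 libraries without guides, and 44109 of 58721 annotated genes were. No count at all was found for 35447 of them in those libraries. With guides, 174 of the silent genes had a mean of at least 1 TPM. Of these, 119 had too few counts to be tested, 16 were tested and not called, and 39 were called higher (adjusted p under 0.05, edgeR's quasi-likelihood test over all genes). The 39 are called switched on here. They were chosen by these same values, so their levels and fold changes in the p65 lines are a description. Of 1243 silent genes with enough counts to be tested, 144 rose (11.6%) and 24 fell (1.93%), but many of these passed the count filter only through the group in which they were high. The same rule in the other direction, at least 1 TPM without guides and under 0.5 TPM with them, found 110 genes, of which 8 were called lower.

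Of the 39 genes, 34 are protein coding and 5 are non-coding genes or pseudogenes. Their mean level with guides ran from 1.02 to 18.6 TPM with a median of 1.55 TPM, and they made up 0.295% of the 13230 genes at 1 TPM or more in that line. In CPM (counts scaled to library size) the libraries with guides all lay above those without in each of the 39, and in TPM in 34. The rule that chose the 39 favours such a separation, so here and below it is a description only. In bulk RNA, a low level in every cell and a higher level in few cells cannot be told apart.

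The sequences that follow are the promoters (250 bases before to 50 after the start, RefSeq, GRCh38.p14) of 5 of the protein-coding genes with the largest fold changes. They are shown as the annotated start regions of genes that were silent without guides, and which start was used cannot be read from counts per gene. RefSeq lists THEG as SPMAP2. Capitals mark CpG dinucleotides, the sites of DNA methylation.
THEG (chr19:375977-376276, minus strand): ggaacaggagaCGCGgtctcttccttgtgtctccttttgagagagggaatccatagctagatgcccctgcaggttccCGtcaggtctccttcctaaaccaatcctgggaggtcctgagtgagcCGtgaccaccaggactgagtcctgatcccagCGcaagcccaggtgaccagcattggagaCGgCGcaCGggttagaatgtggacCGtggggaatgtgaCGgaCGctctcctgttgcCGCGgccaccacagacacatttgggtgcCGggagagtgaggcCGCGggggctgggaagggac
MGAT4C (chr12:86256342-86256641, minus strand): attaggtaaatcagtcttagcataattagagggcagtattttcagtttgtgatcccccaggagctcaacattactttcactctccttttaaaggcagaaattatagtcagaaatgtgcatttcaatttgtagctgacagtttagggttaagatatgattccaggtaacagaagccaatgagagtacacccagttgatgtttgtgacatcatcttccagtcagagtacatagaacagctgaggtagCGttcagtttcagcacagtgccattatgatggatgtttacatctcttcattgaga
PIGR (chr1:206946417-206946716, minus strand): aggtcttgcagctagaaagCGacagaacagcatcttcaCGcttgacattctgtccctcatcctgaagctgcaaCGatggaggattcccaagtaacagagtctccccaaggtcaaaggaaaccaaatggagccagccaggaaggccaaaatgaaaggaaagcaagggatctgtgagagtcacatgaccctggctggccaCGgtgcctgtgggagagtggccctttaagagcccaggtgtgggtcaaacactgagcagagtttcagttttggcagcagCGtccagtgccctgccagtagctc
CCDC198 (chr14:57493808-57494107, minus strand): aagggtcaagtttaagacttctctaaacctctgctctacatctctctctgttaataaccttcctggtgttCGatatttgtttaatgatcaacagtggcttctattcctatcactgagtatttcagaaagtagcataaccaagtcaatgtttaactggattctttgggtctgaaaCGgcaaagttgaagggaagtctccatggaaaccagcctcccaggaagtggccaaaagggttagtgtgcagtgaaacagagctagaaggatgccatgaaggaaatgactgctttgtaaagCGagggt
DNAH9 (chr17:11598220-11598519, plus strand): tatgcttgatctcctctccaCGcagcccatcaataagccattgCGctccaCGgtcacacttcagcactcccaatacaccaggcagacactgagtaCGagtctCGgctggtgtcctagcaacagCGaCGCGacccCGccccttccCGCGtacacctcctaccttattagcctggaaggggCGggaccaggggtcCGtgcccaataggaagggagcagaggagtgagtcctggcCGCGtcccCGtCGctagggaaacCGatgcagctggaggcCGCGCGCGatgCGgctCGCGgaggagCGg
The 5 promoters differ in CpG content. DNAH9 has 26 CpG dinucleotides, THEG 16, PIGR 5, CCDC198 3 and MGAT4C 1. None of the 5 holds GGANTTTCC on either strand, a site form bound by NF-kB. It occurs in only 1.64% of the 27305 promoters of the table, so its absence from 5 promoters says nothing about NF-kB. The RefSeq table matched 25 of the 39 genes (64.1%), under the 80% needed, so a comparison of base composition or motifs over all 39 is void and none is given.

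A group of 14 genes was at least 8-fold higher with guides, with log2 fold changes of 3.30 to 8.56. All 14 were silent in all 3 lines without guides, the p65 line, the VP64 line and the line without an activation domain. Whichever of the 6 libraries was left out, 11 of the 14 and 20 of all 39 still met the rule. The exceptions among the 14 were CCDC198 without replicate C with guides, SLC15A2 without replicate A with guides, and SPINK13 without replicate B without guides, each of which then missed a limit.

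**Figure D1:**
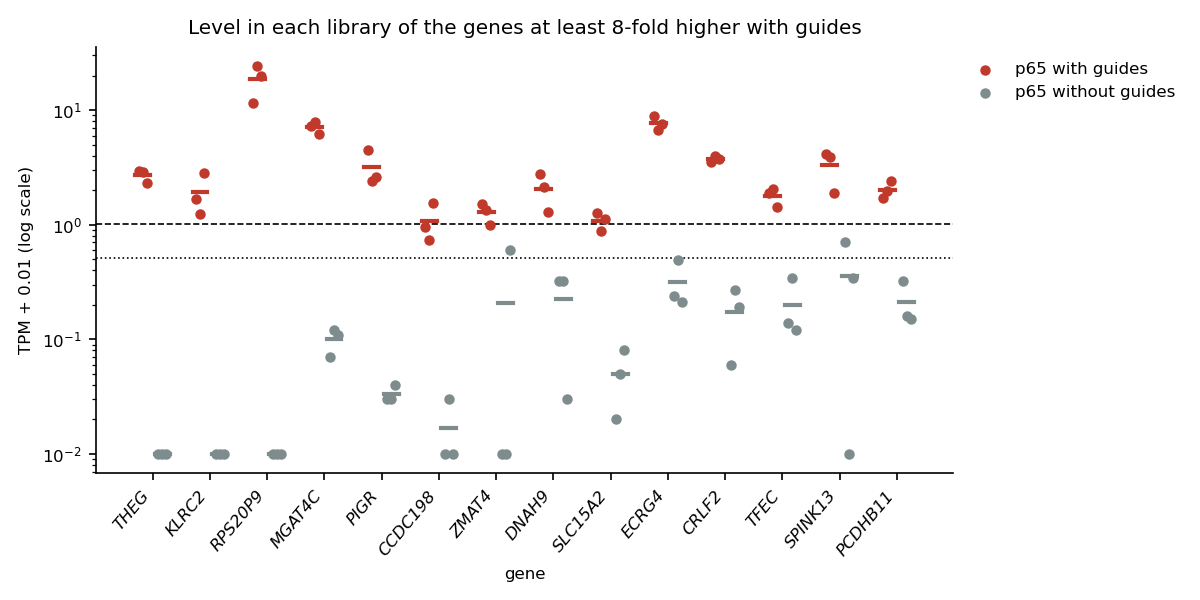
Level of the 14 genes at least 8-fold higher with guides, in each library, as TPM + 0.01 on a log axis. Points are libraries of the p65 line with guides (left, red) and without (right, grey), short lines are means, the dashed line marks 1 TPM and the dotted line 0.5 TPM; all red points lie above all grey points of their gene, and THEG, KLRC2 and RPS20P9 lie at 0 TPM in every library without guides.

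THEG, named for its expression in haploid cells of the testis, had the largest log2 fold change (8.56, SE 0.918). It stood at 2.91, 2.89 and 2.32 TPM with guides, against 0 TPM in each library without. The 135 counts with guides against 0 without make it at least 49.8-fold higher, taking 3 counts in the group as the floor, and the fitted value for a gene at 0 depends on the prior count and is no bound. THEG (ENSG00000105549.10) lies on chromosome 19 from 361747 to 376670 (hg38, GENCODE 29). It had 0 TPM in the line without an activation domain. Of 27 testis and germ line genes listed it was the one switched on, and 13 others, among them DDX4, SYCP1, PRM1 and TNP1, had no count in any of the 6 libraries.

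MGAT4C, of the family of N-acetylglucosaminyltransferases that branch N-glycans, had the highest level among the switched-on protein-coding genes after ECRG4. It stood at 7.28, 7.94 and 6.19 TPM with guides, against 0.06, 0.11 and 0.10 TPM without. Its summed counts were 1241 with guides and 9 without, a ratio of 153 (95% counting interval 80.2 to 335). No library without guides came near those with guides. MGAT4C (ENSG00000182050.13) spans 85955666 to 86838904 on chromosome 12, and its GENCODE start is 80.1 Mb from that of CD4. The RefSeq promoter printed above belongs to a different start, inside this span.

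PIGR, the receptor that carries dimeric IgA across mucosal epithelium, stood at 4.47, 2.41 and 2.62 TPM with guides, against 0.02, 0.02 and 0.03 TPM without. The 481 counts against 4 give a ratio of 133 (95% counting interval 51.7 to 491). The groups lie far apart, and replicate A was the highest. PIGR (ENSG00000162896.5) lies on chromosome 1 from 206928518 to 206946466. Its neighbour IL24, a cytokine of the IL-10 family, already high in these cells, rose by 0.67 on the log2 scale (SE 0.049), to a mean of 490 TPM with guides against 314 TPM without. Of 29 mucosal epithelium genes listed 15 were tested, and PIGR and the tight junction gene CLDN4 rose (log2 fold change of CLDN4 0.74, SE 0.124) while 0 fell. That is a smaller share rising than the 18.7% of all genes tested.

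DNAH9, a dynein heavy chain of the outer arms of motile cilia, stood at 2.78, 2.12 and 1.27 TPM with guides, against 0.31, 0.31 and 0.02 TPM without. The 124 counts against 3 give a ratio of 45.8 (95% counting interval 15.3 to 225). The lowest library with guides was still above the highest without. DNAH9 (ENSG00000007174.17) lies on chromosome 17 from 11598431 to 11969748. Of 24 motile cilium genes listed, 12 were tested, and DNAH9 and its relative DNAH11 (log2 fold change 0.41, SE 0.101) rose while 0 fell, against 18.7% and 20.2% of all genes tested, so the share that rose was near that of all genes. RFX3, a transcription factor that drives cilium genes, is also among the 39, at 1.88, 1.98 and 1.39 TPM with guides, against 0.29, 0.43 and 0.48 TPM without.

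CRLF2, which pairs with IL7R to form the receptor for the cytokine TSLP, stood at 3.50, 3.95 and 3.70 TPM with guides, against 0.05, 0.26 and 0.18 TPM without (log2 fold change 4.47, SE 0.456). Its libraries with guides were tightly grouped and well above the rest. CRLF2 (ENSG00000205755.11) lies on chromosome X from 1187549 to 1212750, in a region shared with the Y chromosome, so reads of the 2 copies cannot be told apart. Its partner IL7R fell, with 40.4, 40.0 and 53.3 TPM with guides against 78.7, 73.8 and 71.9 TPM without (log2 fold change -0.68, SE 0.061, edgeR adjusted p = 1.05e-08). IL20RB, a subunit of receptors for IL-20 and IL-24 in skin, was switched on at a lower fold, with 0.95, 0.77 and 1.49 TPM with guides against 0.33, 0.46 and 0.59 TPM without. Of 42 listed type I and II cytokine receptors 27 were tested, 8 rose and 2 fell, against 18.7% and 20.2% of all genes tested.

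KLRC2 encodes NKG2C, an activating receptor of natural killer cells that recognises HLA-E. It stood at 1.66, 1.22 and 2.84 TPM with guides, against 0 TPM in each library without, at least 25.8-fold higher (70 counts against 0). KLRC2 (ENSG00000205809.9) lies on chromosome 12 from 10426854 to 10442300, and its start is 3.66 Mb from that of CD4. It is uncertain which gene of its cluster the reads come from. The near-identical neighbour KLRC3 was listed at 1.15, 1.15 and 0.33 TPM with guides and 0 TPM in each library without, and KLRC1 at 0 TPM in all 6.

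SLC15A2 encodes PEPT2, a peptide transporter of the kidney tubule. It stood at 1.25, 0.87 and 1.11 TPM with guides, against 0.01, 0.04 and 0.07 TPM without (log2 fold change 5.05, SE 0.390). ECRG4, which encodes a secreted peptide precursor, stood at 8.80, 6.68 and 7.55 TPM with guides, against 0.23, 0.48 and 0.20 TPM without (4.92, SE 0.573). For both genes the groups were far apart. ECRG4 (ENSG00000119147.9) lies on chromosome 2 from 106063246 to 106078159 and SLC15A2 (ENSG00000163406.10) on chromosome 3 from 121894089 to 121944102.

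TFEC belongs to the MiT family of transcription factors with MITF, the master regulator of melanocytes, and is known from macrophages in mice. It stood at 1.87, 2.05 and 1.41 TPM with guides, against 0.13, 0.33 and 0.11 TPM without (log2 fold change 3.80, SE 0.263). MITF itself averaged 3.45 TPM with guides and 3.61 TPM without. TFEC (ENSG00000105967.15) lies on chromosome 7 from 115935148 to 116159896.

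The others of this group were lower or less certain. CCDC198, a coiled-coil protein gene on chromosome 14, stood at 0.94, 0.72 and 1.54 TPM with guides, against 0, 0.02 and 0 TPM without. SPINK13, of the Kazal family of serine protease inhibitors, on chromosome 5, stood at 4.17, 3.88 and 1.88 TPM with guides, against 0.70, 0 and 0.33 TPM without. ZMAT4, a zinc finger gene on chromosome 8, stood at 1.52, 1.34 and 0.99 TPM with guides, against 0, 0 and 0.59 TPM without. In each of these 3 the groups did not overlap. RPS20P9, a processed copy of the ribosomal protein gene RPS20 inside EHBP1 on chromosome 2, had the highest TPM of all 39, at 11.65, 24.09 and 20.04 TPM with guides against 0 TPM without. Those values rest on 63 counts in all, and reads from RPS20, at 1907 TPM with guides and 2036 TPM without, could be assigned to the copy, so it is uncertain. RPS20 itself did not pass (log2 fold change -0.05, SE 0.041, edgeR adjusted p = 0.368).

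PCDHB11, a clustered protocadherin of neurons, stood at 1.70, 1.96 and 2.38 TPM with guides, against 0.31, 0.15 and 0.14 TPM without (log2 fold change 3.30, SE 0.253). It lies on chromosome 5 from 141199582 to 141203779 (ENSG00000197479.6), within the beta cluster, where near-identical genes stand in a row. Of 12 other tested genes of the cluster within 100 kb, 9 rose and 0 fell, against 18.7% of all genes tested that rose. PCDHB5 rose by 1.80 on the log2 scale (SE 0.076), to a mean of 20.8 TPM with guides against 6.01 TPM without, PCDHB16 by 0.96 (SE 0.145) and PCDHB6 by 0.65 (SE 0.092). On the other side of PCDHB11, PCDHB12 rose by 0.58 (SE 0.213), while PCDHB13, PCDHB14 and PCDHB15 did not pass (log2 fold changes -0.02, 0.29 and 0.78). Reads may be shared between these paralogs, so the value of any single member is uncertain.

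The other 25 genes had log2 fold changes of 0.86 to 2.69. Of these, 8 were silent in all 3 lines without guides and 17 were not.

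PROX1, a homeobox factor that sets the fate of lymphatic endothelium, had the largest fold of them. It stood at 1.68, 1.54 and 1.42 TPM with guides, against 0.33, 0.24 and 0.16 TPM without (log2 fold change 2.69, SE 0.200). The groups were well apart, but in the VP64 line without guides it already had 0.90, 0.64 and 1.38 TPM. PROX1 (ENSG00000117707.15) lies on chromosome 1 from 213983181 to 214041502. Of 26 endothelial genes listed, 10 were tested, 3 rose and 2 fell, against 18.7% and 20.2% of all genes tested. Besides PROX1, ROBO4 (log2 fold change 0.73, SE 0.057) and EGFL7 (0.25, SE 0.060) rose. ESM1 (-2.06, SE 0.119) and the gap junction gene GJA5 (-1.53, SE 0.249) fell.

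AQP1, a water channel of kidney tubule and red cells, stood at 2.90, 1.70 and 1.56 TPM with guides, against 0.51, 0.51 and 0.44 TPM without (log2 fold change 1.49, SE 0.288). The groups did not overlap, but the line without an activation domain had 2.27, 1.45 and 2.29 TPM, about the level with guides. Of 24 kidney genes listed, 9 were tested, 5 rose and 1 fell, against 18.7% and 20.2% of all genes tested. Of the 5 that rose, 4 were silent without guides, and SLC15A2 and AQP1 were chosen by the rule, so the share is a description only. Besides SLC15A2 and AQP1 the genes that rose were CUBN, the cubilin receptor (log2 fold change 1.50, SE 0.263), the phosphate transporter SLC34A1 (2.11, SE 0.520) and the salt transporter SLC12A1 (1.26, SE 0.476), at means of 0.550 to 1.38 TPM with guides. CUBN differed little in TPM, with means of 0.550 TPM with guides and 0.460 TPM without. The proton pump gene ATP6V0A4 fell (-0.77, SE 0.075). UMOD and SLC22A8 had no count in the 6 libraries, and the summed level of the list was 15.9 to 20.8 TPM with guides and 17.3 to 18.7 TPM without.

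Genes of lipid and carbon metabolism were ABCG1, which exports cholesterol, GPD1, which makes glycerol 3-phosphate, PGAM2, the muscle phosphoglycerate mutase, and AKR1B10, an aldo-keto reductase of the gut. ABCG1, on chromosome 21, stood at 1.64, 1.41 and 1.26 TPM with guides, against 0.34, 0.25 and 0.43 TPM without (log2 fold change 2.08, SE 0.339). PGAM2, on chromosome 7 and overlapping DBNL, which also rose, stood at 3.30, 1.58 and 1.59 TPM with guides, against 0.21, 0.31 and 0.53 TPM without (2.59, SE 0.624). The groups of both were separate. GPD1, on chromosome 12 and 43.3 Mb from CD4, stood at 3.13, 0.57 and 0.64 TPM with guides, against 0.25, 0.92 and 0.31 TPM without, so its TPM values overlapped and its mean rested on replicate A.

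Genes of matrix and signalling included P4HA3, a subunit of the prolyl hydroxylase of collagen, CREB3L1, a membrane-bound factor that drives collagen genes in mouse bone, SHC4, an adaptor of receptor tyrosine kinases, and NOX4, an oxidase that makes hydrogen peroxide. CREB3L1, on chromosome 11, stood at 1.33, 2.55 and 1.26 TPM with guides, against 0.35, 0.52 and 0.16 TPM without (log2 fold change 2.43, SE 0.313). SHC4, on chromosome 15, stood at 2.12, 1.58 and 2.72 TPM with guides, against 0.36, 0.52 and 0.46 TPM without (2.39, SE 0.208). P4HA3, on chromosome 11, stood at 0.77, 1.35 and 1.40 TPM with guides, against 0.30, 0.25 and 0.21 TPM without (2.12, SE 0.422). All 3 were separate between the groups, but SHC4 had 0.74, 1.04 and 1.05 TPM in the line without an activation domain. NOX4, also on chromosome 11, lay at the edge of the rule, with means of 1.02 ± 0.372 TPM with guides and 0.497 ± 0.118 TPM without (SD, n = 3 each).

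Among genes of blood and placenta, FCGR2A, an IgG receptor of myeloid cells on chromosome 1, stood at 2.13, 0.51 and 1.24 TPM with guides, against 0.14, 0.09 and 0.45 TPM without. Its call rested on 35 counts against 12 and was lost without replicate A with guides (edgeR adjusted p = 0.21) and without replicate A or B of the line without guides (0.15 and 0.101). PSG2, a pregnancy-specific glycoprotein of the placenta on chromosome 19, stood at 1.52, 2.20 and 2.16 TPM with guides, against 0.37, 0.54 and 0.58 TPM without. It belongs to a family of near-identical genes and is uncertain for that reason. SCARA5, a ferritin receptor on chromosome 8, stood at 1.15, 1.37 and 0.78 TPM with guides, against 0.26, 0.23 and 0.34 TPM without. Of 20 listed myeloid markers 12 were tested, and 1 rose, CD68 (log2 fold change 0.63, SE 0.056), against 18.7% of all genes tested. SPI1 was called lower (-0.53, SE 0.200, edgeR adjusted p = 0.0414), but the call was lost with DESeq2 (0.0553), with only the 6 libraries (0.0774) and in 4 fits that left out 1 library (up to 0.199). MPO, ELANE and CLEC7A had no count.

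SEMA3A, a secreted repellent of growing axons on chromosome 7, met the rule through 1 library. It stood at 5.79, 0.70 and 0.37 TPM with guides, against 0.18, 0.45 and 0.18 TPM without, while its counts were 116 against 71 (log2 fold change 0.86, SE 0.259). Without replicate A of the line with guides it was no longer among the switched-on genes. MAMDC4, on chromosome 9 and overlapping PHPT1, which also rose, stood at 1.22, 2.56 and 0.33 TPM with guides, against 0.84, 0.17 and 0.27 TPM without, and lost its call without replicate A with guides (edgeR adjusted p = 0.0679), B with guides (0.122) or B without guides (0.0901). Several of the 39 overlap genes on the other strand, such as SLCO4A1-AS1 (SLCO4A1), LNCTAM34A (MIR34AHG), LY6E-DT (LY6E, at 353 TPM with guides and 334 TPM without), PGAM2 (DBNL, at 189.6 TPM with guides and 156 TPM without) and SHC4 (EID1), and since no source used here gives the strand setting, their reads cannot be told apart from those partners. SLCO4A1-AS1 stood at 2.55, 2.51 and 1.03 TPM with guides, against 0.30, 0.62 and 0.22 TPM without.

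Some genes lay close to the limits of the rule. Just under the limit of silence, by mean TPM without guides, and so among the 39, were PSG2 at 0.497 TPM, NOX4 at 0.497 TPM and GPD1 at 0.493 TPM. Just over it, and so left out, were TFCP2L1 at 0.50 TPM, PCDHAC1 at 0.520 TPM and ARHGAP5-AS1 at 0.523 TPM. TFCP2L1, a transcription factor of kidney ducts and of embryonic stem cells, stood at 6.99, 6.55 and 7.63 TPM with guides, against 0.47, 0.54 and 0.49 TPM without (log2 fold change 3.83, SE 0.106, edgeR adjusted p = 6.48e-17). With a limit of 0.5 TPM for expression, 63 more silent genes would count. ESYT3, a membrane-tethering protein on chromosome 3, was one of them, chosen after its values were seen, with 0.98, 0.86 and 0.97 TPM with guides against 0 TPM in each library without.

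The VP64 pair gave the same measure in libraries whose levels the rule did not use, although they shared its count filter and its estimate of the spread. With guides against none, 26 of the 39 rose and 0 fell in the VP64 lines, where 19.3% of all genes tested rose. With each pair fitted on its own 6 libraries, 38 genes were switched on (36 of the 39 among them), and 18 of the 39 rose in the VP64 lines. The log2 fold change was above 0 in 38, the exception being SLC15A2 (-0.07, SE 0.572). The median over the 39 was 2.13 in the p65 lines and 1.74 in the VP64 lines, against -0.01 and 0.00 over all genes tested. With genes at 0 counts without guides set at their bound, the medians were 2.13 and 1.52. Of the 14 genes of at least 8-fold, 10 rose in the VP64 lines, and of the other 25, 16 did.

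Each of the 14 steepest genes had a lower mean in the VP64 line with guides than in the p65 line with guides. MGAT4C had 7.14 ± 0.884 TPM with p65 and guides and 0.280 ± 0.0265 TPM with VP64 and guides, PIGR 3.17 ± 1.13 and 0.187 ± 0.0416 TPM, and THEG 2.71 ± 0.335 and 0.310 ± 0.225 TPM (SD, n = 3 each). Their log2 fold changes in the VP64 lines were 3.52 (SE 0.459), 2.98 (SE 0.510) and 3.77 (SE 1.074), all past the threshold. DNAH9 was nearly as high with VP64, at 2.06 ± 0.757 TPM with p65 and 1.88 ± 0.795 TPM with VP64. Higher means in the VP64 line with guides were found for ABCG1, AKR1B10, FCGR2A, GPD1, LINC00702, LNCTAM34A, NOX4, SCARA5 and SLCO4A1-AS1. SLCO4A1-AS1 had 2.03 ± 0.866 TPM with p65 and guides and 7.55 ± 1.94 TPM with VP64 and guides. In all, 20 of the 39 reached 1 TPM with VP64 and guides, and 30 had a higher mean with p65. The 39 were chosen by their level and rise in the p65 lines. That choice favours higher means and fold changes there, so these counts do not rank the arms. Whether the guide effects differ between the arms was not tested here.

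**Figure D2:**
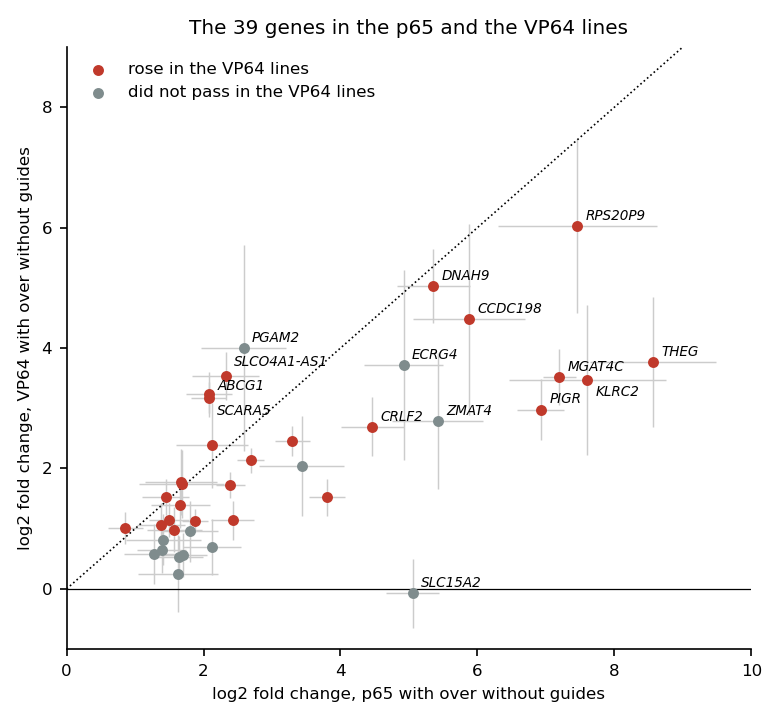
Log2 fold change with over without guides of the 39 genes in the p65 lines (horizontal) and the VP64 lines (vertical), with SE bars. Red points rose in the VP64 lines and grey points did not pass there; the dotted line marks equal values, and SLC15A2 is the point below 0.

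**Figure D3:**
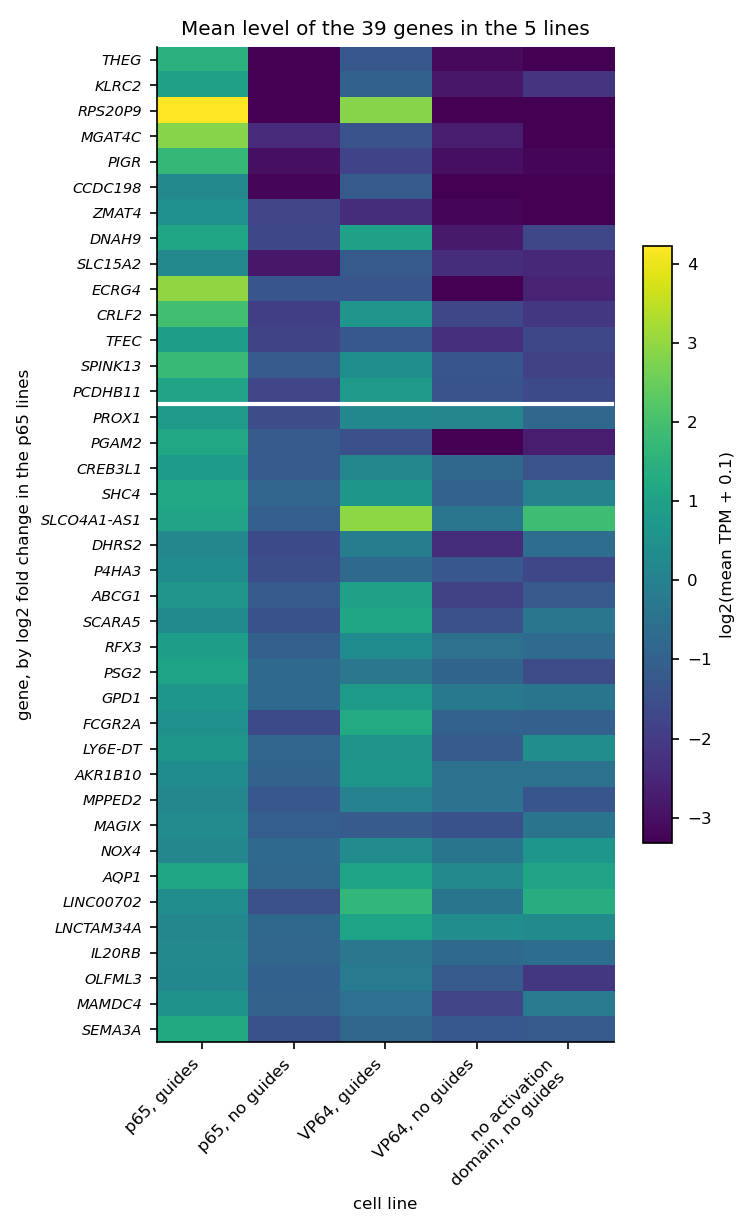
Mean level of the 39 genes in the 5 lines, as log2(mean TPM + 0.1), ordered by log2 fold change in the p65 lines from the top, with a white line under the 14 genes of at least 8-fold. Those 14 are dark in all 3 columns without guides, while several genes below the line, such as AQP1, LINC00702 and SLCO4A1-AS1, are also bright in the line without an activation domain.

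Silence in the p65 line without guides was not always silence in MelJuSo. Of the 39 genes, 22 were under 0.5 TPM in all 3 lines without guides, and 15 of these rose in the VP64 lines. In the line without an activation domain 6 of the 39 had a mean of at least 1 TPM, which were AQP1, SLCO4A1-AS1, LINC00702, NOX4, LY6E-DT and LNCTAM34A. SLCO4A1-AS1 averaged 2.03 TPM with p65 and guides, 0.380 TPM with p65 and no guides, and 3.55 TPM in the line without an activation domain, and 4 of the 39 were higher in that line than in the p65 line with guides.

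The switched-on genes were spread over 17 chromosomes, with 5 each on chromosomes 1 and 7, 4 on chromosome 11, and 3 each on chromosomes 8 and 12. None started within 500 kb of the start of CD4 (chromosome 12, 6786858 to 6820808). In that window lie 82 annotated genes, of which 39 were silent without guides and 42 were tested. Of the 42, 17 rose and 6 fell, against 18.7% and 20.2% of all genes tested, and the median log2 fold change was 0.18. The genes that rose most were LAG3, PTMS and C1S. PTMS, 21.3 kb before CD4, had 1272, 1187 and 1102 TPM with guides, against 433, 482 and 518 TPM without (1.17, SE 0.054, edgeR adjusted p = 2.52e-13). LAG3, an immune receptor gene 14.3 kb before CD4, was silent in the p65 line without guides but did not reach the limit with them. It had 1.25, 0.92 and 0.27 TPM with guides, against 0.17, 0.10 and 0.10 TPM without (2.36, SE 0.497, edgeR adjusted p = 0.000619). In the line without an activation domain LAG3 was not silent, with 0.73, 0.85 and 0.47 TPM. C1S, a complement protease gene 201.4 kb after CD4, rose by 1.11 (SE 0.176).

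**Figure D4:**
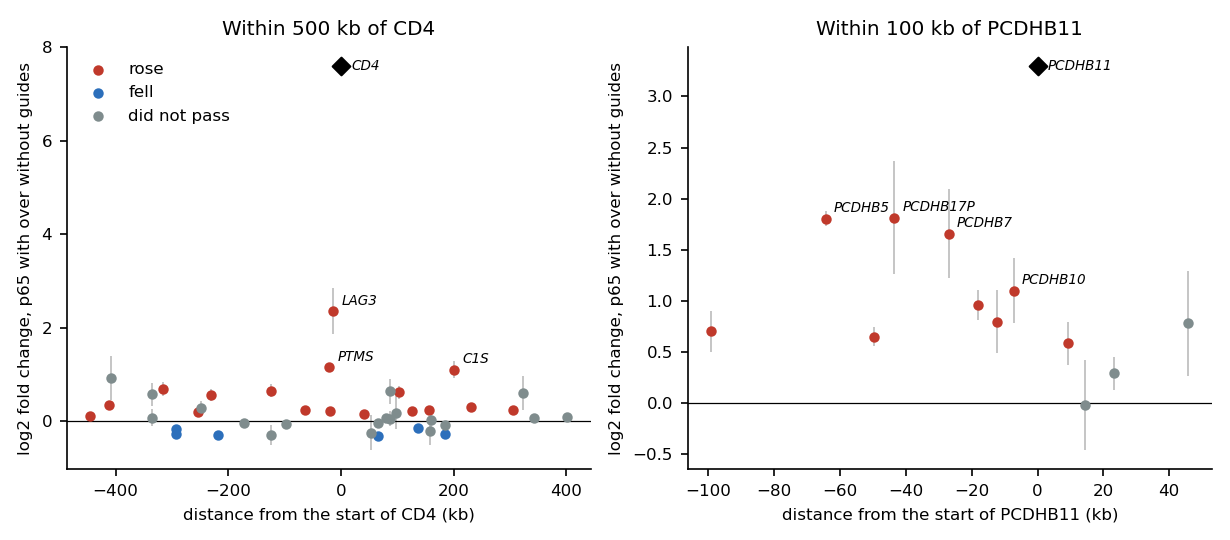
Log2 fold change with over without guides in the p65 lines, with SE bars, of the tested genes within 500 kb of the start of CD4 (left) and within 100 kb of the start of PCDHB11 (right), by distance in kb. Black diamonds are CD4 (7.60) and PCDHB11 (3.30), red points rose, blue points fell and grey points did not pass; next to CD4 only LAG3, PTMS and C1S exceed 1, while 9 of 12 neighbours of PCDHB11 rose.

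On chromosome 12 as a whole, 135 of 793 tested genes rose (17%), and 26 rose at least 2-fold (3.28%, against 2.2% of all genes tested). The closest pair of switched-on genes on any chromosome started 7.04 Mb apart. Around the 39 genes, 80 other tested genes start within 100 kb. Of these, 29 rose (36.2%, against 18.7% of all genes tested) and 6 fell. Without the PCDHB genes 20 of 68 rose (29.4%), and 0 of the 68 rose 2-fold, the highest being 0.81 on the log2 scale. Overlapping annotated genes were found for 24 of the 39, and in 3 of these the partner also rose. For most of the 24 no partner was tested, so the 3 cannot be set against the 18.7% of all genes tested.

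By normal tissue role the 39 genes were scattered. Of 548 genes in 21 lists of tissue and cell type markers, 393 were silent without guides and 8 were switched on, in 6 lists, against 39 of 44109 silent genes in all. The lists were drawn up with earlier results of these data known, so nothing particular to them is read from this. They were CRLF2 and IL20RB (cytokine receptors), PIGR (mucosal epithelium), DNAH9 (motile cilium), THEG (testis), SLC15A2 and AQP1 (kidney) and PROX1 (endothelium). In 15 lists no listed gene was switched on, among them liver (29 genes), pancreas and gut (29), striated muscle (36), neuron and synapse (31) and pluripotency (17). The lists do not hold every gene of a tissue. PGAM2 of muscle, AKR1B10 of the gut and PCDHB11 of neurons were switched on but are in no list. Of the 200 list genes that could be tested 45 rose and 15 fell, against 18.7% and 20.2% of all genes tested. The 45 include the 8 switched-on genes, which were chosen by the rule. This count and those of the lists that hold them are therefore descriptions.

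Other list genes rose without meeting the rule. Of 14 tested genes of glia and myelin 7 rose and 0 fell, against 18.7% and 20.2% of all genes tested, with a median log2 fold change of 0.60, among them S100B, a calcium-binding protein of melanocytes and Schwann cells (1.51, SE 0.122), MBP (0.58, SE 0.061) and NGFR (0.79, SE 0.085). S100B had 151, 132 and 94.2 TPM with guides, against 43.6, 47.9 and 43.7 TPM without. The muscle gene MYOZ2 was silent without guides and rose (3.07, SE 0.549), but its mean with guides, 0.847 TPM against 0.0967 TPM without, did not reach 1 TPM.

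The 8 genes that were called lower and fell under 0.5 TPM were at low levels in both groups. GJA5 had 0.79, 0.34 and 0.33 TPM with guides, against 1.50, 0.91 and 1.10 TPM without. GALNTL6, of the family of GalNAc transferases, had 0.35, 0.25 and 0.38 TPM with guides, against 1.58, 0.67 and 0.86 TPM without (log2 fold change -1.42, SE 0.379). OXTR, the oxytocin receptor, had 0.30, 0.47 and 0.54 TPM with guides, against 0.83, 1.44 and 0.89 TPM without. In these 3 the groups were separate. The others were MYO7B, ASAH2, NCAM2, the pseudogene ZBTB45P1 and 1 gene without a symbol. The call of ZBTB45P1 was lost with DESeq2 (adjusted p = 0.294), with the replicate block (edgeR adjusted p = 0.0613) and in 5 fits that left out 1 library (up to 0.195). NCAM2 lost its call without replicate A of either group (0.105 and 0.0708), and OXTR without replicate A with guides (0.0865). Of the 8, 4 also fell in the VP64 lines, where 21.3% of all genes tested fell.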

How the data were processed

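Total RNA of 15 MelJuSo libraries (5 lines of 3) was sequenced. The authors deposited 1 table per library with RSEM expected counts and TPM (transcripts per 1000000, scaled for length) for 58813 entries, per the file headers. STAR, RSEM and hg38 are named in the submitters' processing notes; no source used here gives their versions or the strand setting. Identifiers were matched to GENCODE 29. The 92 spike-in entries (0 to 7 counts per library) were left out. Library totals were 15643705 to 23072512 expected counts.

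Expected counts were rounded and fitted over all 15 libraries with edgeR 4.0.16 in R 4.3.3 (TMM, filterByExpr with a minimum count of 10, quasi-likelihood test, Benjamini-Hochberg adjustment over all 14961 genes, threshold 0.05), without covariates. Silence was a mean under 0.5 TPM and expression a mean of at least 1 TPM. No 2 replicates of the p65 lines agreed within sampling noise. Ratios of summed counts carry exact 95% intervals, which like the floor of 3 counts cover counting error only. The fit was tested on simulated data. DESeq2 1.42.0, other filters and limits, left-out libraries and a replicate block were tried as alternatives.

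Members and gene lists were chosen with earlier results of these data known. Genes named were CD4, the switched-on genes with the highest TPM, on chromosome 12 or in a list, those switched off, those called near CD4, up to 3 called genes per list, up to 10 others per direction and 3 on each side of the 0.5 TPM limit. Further genes (partners, paralogs, neighbours, the remaining switched-on genes, and list members at 0) were named after their values were seen.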

Additional observations from a re-analysis of the deposited data

Results flagged for a closer look

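DCT, an enzyme of melanin synthesis, was called lower with guides in the p65 lines and did not pass in the VP64 lines, where its values lay the other way. It stood at 0.88, 1.07 and 1.03 TPM with p65 and guides, against 1.36, 1.66 and 1.60 TPM with p65 and no guides (log2 fold change -0.68). It stood at 1.36, 1.49 and 1.21 TPM with VP64 and guides, against 1.05, 0.86 and 0.77 TPM with VP64 and no guides (0.41, edgeR adjusted p = 0.0558). Every p65 library with guides lay below every one without, and every VP64 library with guides lay above every one without. The difference between the pairs was not tested.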

How the results depend on the processing

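The 39 switched-on genes depended most on the limits. Their number was 15 with silence below 0.25 TPM, 102 with expression from 0.5 TPM, 14 with expression from 2 TPM, and 17 with a filter of 1 CPM. The 22 silent in all 3 lines were counted as an alternative added after seeing the data. Without a filter there were 57, of which 38 were shared, and with silence below 1 TPM and expression from 2 TPM again 39, of which 14 were shared. The number rising in the VP64 pair, 26, was 13, 60, 11 and 16 under the first 4 of these and 15 for genes silent in all 3 lines. The 8 switched-off genes became 2 with silence below 0.25 TPM, 29 and 1 with expression from 0.5 and 2 TPM, 4 with limits of 1 and 2 TPM, and 13 without a filter.

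Leaving out 1 library gave 33 to 52 switched-on genes, 5 to 12 switched off, 21 to 25 rising in the VP64 pair, 13 to 19 rising near CD4, 2344 to 2814 rising and 2482 to 3005 falling over all genes, and a CD4 log2 fold change of 7.56 to 7.64. The lowest switched-off count, 5, came without replicate A with guides. No value reversed. With DESeq2 size factors 2924 rose and 2840 fell, against 2805 and 3018. Same-letter replicates of the p65 lines did not deviate together (correlations -0.020, 0.002 and -0.073), so the letters do not pair them; with the replicate block 2735 rose, 2932 fell and 40 were switched on, and the calls of FCGR2A and ZBTB45P1 were lost. Low counts limit genes near 1 TPM: 119 silent genes at 1 TPM or more with guides could not be tested.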
